A study of Mus musculus with 32 samples.

Results

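Glutathione peroxidases and selenoproteins of the mouse kidney are described here through 7 genes, Gpx1, Gpx3, Gpx4, Selenop, Dio1, Msrb1 and Txnrd2, out of 54532 genes in the count table. The genes were selected on measured values of these mice, among them the abundance of Gpx3 among nuclear transcripts and the fall of Dio1 at Day 5, so the Day 5 change of these genes is given as a description without a test, and the Day 2 and Day 3 comparisons and that of the sexes at Day 0 share their Day 0 mice with it. They were set beside the other 17 mouse genes annotated as selenoproteins, which makes 24 selenoprotein genes in all. Bulk RNA sequencing had been done on the kidneys of 32 wild-type C57BL/6 mice aged 6 to 8 weeks, in 8 groups of 4. The groups were males and females sampled on Days 0, 2, 3 and 5 of an acute kidney injury model induced with a single intraperitoneal injection of 20 mg/kg cisplatin, a platinum drug that damages the tubules of the kidney. Day 0 mice were the healthy kidneys of the time course, although the sample labels of the Day 0 females carry the drug's name and those of the Day 0 males carry none. Each library was made from 1 mouse and from whole kidney tissue, so fewer cells of a type and less RNA per cell cannot be told apart.

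Selenoproteins are enzymes and carriers that hold selenocysteine, an amino acid in which selenium takes the place of the sulfur of cysteine. The ribosome reads a UGA codon, otherwise a stop signal, as selenocysteine when the transcript carries a selenocysteine insertion element, and when selenium is short, the transcripts of some of these genes are degraded. Proximal tubule cells of the kidney take up the plasma carrier selenoprotein P through the receptor megalin (Lrp2) and secrete glutathione peroxidase 3 into the blood. The selenocysteine codon therefore marks each of the 24 selenoprotein genes, and the coding sequence around it is shown for the 7 genes, from the GENCODE vM21 transcripts on the GRCm38 build, 5′ to 3′ on the transcript's strand, with the codon in capitals.

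Gpx1, chr9:108339451-108339453, exon 1 of 2, codon 47 of 201: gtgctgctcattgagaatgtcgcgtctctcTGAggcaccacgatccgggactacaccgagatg
Gpx3, chr11:54907256-54907258, exon 2 of 5, codon 73 of 226: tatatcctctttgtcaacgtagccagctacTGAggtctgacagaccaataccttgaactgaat
Gpx4, chr10:80054737-80054739, exon 3 of 7, codon 129 of 253: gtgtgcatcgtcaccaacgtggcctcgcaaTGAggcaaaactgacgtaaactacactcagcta
Msrb1, chr17:24740158-24740160, exon 3 of 4, codon 95 of 116: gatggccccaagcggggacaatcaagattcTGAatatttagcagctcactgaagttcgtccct
Txnrd2, chr16:18477772-18477774, exon 17 of 18, codon 526 of 527: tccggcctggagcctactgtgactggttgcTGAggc
Selenop, chr15:3274848-3274850, exon 2 of 5, codon 59 of 380: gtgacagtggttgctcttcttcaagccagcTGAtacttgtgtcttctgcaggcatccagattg
Dio1, chr4:107297700-107297702, minus strand, exon 2 of 4, codon 126 of 257: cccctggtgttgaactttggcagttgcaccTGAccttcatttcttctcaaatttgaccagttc

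In Txnrd2 the codon is the last but one before the stop, whereas in Gpx1, Gpx3, Dio1 and the first site of Selenop it lies inside the coding sequence. Selenop held 10 such codons, the last at codon 377, Dio2 held 2, and each of the other 22 selenoprotein genes held exactly 1.

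The libraries held between 16502107 and 35961325 gene counts, of which 4.49% to 79.8% came from the mitochondrial genome. The widest range was at Day 5, with 42.5% to 79.8% in males and 9.30% to 77.9% in females. Levels are given as FPKM (fragments scaled to gene length and to the library's effective size), as deposited. Against its label, male Day 5 mouse 1 had 4153 reads of Xist, a female-specific RNA, and 387 of Y-linked genes. Among females, Y-linked reads numbered 221 in Day 0 mouse 1 and 44 and 66 in Day 0 mice 3 and 4, and 0 in every mouse of the later days. Apart from male Day 5 mouse 1, reads of Xist numbered 242 in male Day 0 mouse 4, 260 in male Day 5 mouse 2 and at most 89 in the other males. Male Day 0 mouse 3 and female Day 0 mice 2 and 3 also stood apart from their groups, female Day 0 mouse 2 with 7173 FPKM summed over 8 hepatocyte markers including albumin. These 3 and male Day 5 mouse 1 were left out together in 1 alternative, although female Day 5 mouse 2, with 77.9% mitochondrial counts, female Day 0 mouse 4, and male Day 0 mouse 4, with 23.97% against at most 10.7% mitochondrial counts in the other Day 0 males, differed from their groups as well, and these were left out only singly. Each of 14 proximal tubule markers was above 3 counts in some mice of every group. Kap, the most abundant of them, went from a median of 36452 FPKM in Day 0 males to 4631 in Day 5 males and from 25877 in Day 0 females to 3653 in Day 5 females. The summed level of the other 13 had medians of 5198, 4692, 4764 and 672 FPKM in males on Days 0, 2, 3 and 5, and of 4520, 3435, 3026 and 3613 in females. In males at Day 3, 3 of the 14 were called higher and 2 lower, 3 of 4 distal tubule markers were called lower, and 1 of 6 tubule injury markers was called. Of all genes 11.4% were called higher and 13.1% lower there. In females at Day 3, 1 of the 14 was lower, 3 of 6 tubule injury markers were higher, and 1 of 4 distal tubule markers was called. There 1.26% of all genes were called higher and 4.28% lower. Markers of blood cells did not stay level either, with a median over 5 red-cell genes of 634 FPKM in males at Day 0, 1.03 at Day 3 and 2287 at Day 5, and of 1352, 6.48 and 58.4 in females. The summed level of 4 adrenal cortex markers had a median of 2.69 FPKM in females at Day 0, 209.7 at Day 3 and 305 at Day 5, and in males of 0.763, 0.935 and 20.9. The part of these cell types and libraries in the results was not tested.

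Gpx3, which encodes the secreted plasma glutathione peroxidase, was the most abundant protein-coding nuclear transcript by counts in 32 of 32 libraries. Among all nuclear transcripts it was first by counts in 28 of 32. Gpx3 was selected for this abundance. Ranked by FPKM it came first in 21 of 32, with Kap, a proximal tubule gene, above it in the others. It took between 1.29% and 12.2% of all nuclear gene counts, with group medians of 4.35% in Day 0 males, 1.39% in Day 5 males, 6.22% in Day 0 females and 3.96% in Day 5 females. In Day 0 males Gpx3 was at 13992, 14605, 48735 and 21679 FPKM. At Day 2 it was at 8715, 10363, 10113 and 10578 FPKM, and at Day 3 at 12303, 10047, 10746 and 10070. Every Day 2 and Day 3 male lay below every Day 0 male, and the third Day 0 male stood far above the rest. The log2 fold change against Day 0 was -1.30 (SE 0.41) at Day 2 and -1.19 (SE 0.41) at Day 3, and neither passed the edgeR quasi-likelihood test (adjusted p = 0.0879 and 0.0639, n = 4 a group). With Day 0 mouse 3 left out the changes were -0.78 (adjusted p = 0.0535) and -0.65 (adjusted p = 0.0330), of which the second passed by edgeR. At Day 5 the males were at 9436, 4746, 5272 and 4973 FPKM, with the high value in the library labelled mouse 1.

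In females Gpx3 was at 20286, 33875, 72020 and 22710 FPKM at Day 0. It was at 21844, 8479, 9439 and 11116 FPKM at Day 2 and at 11656, 12807, 11253 and 15070 at Day 3. The first Day 2 female lay among the Day 0 females, and all Day 3 females lay below them. The log2 fold change was -1.51 (SE 0.57) at Day 2 and -1.53 (SE 0.46) at Day 3, with adjusted p of 0.136 and 0.0694 by edgeR, and without Day 0 mice 2 and 3 it was -0.75 and -0.77. At Day 5 females were at 14473, 7848, 20078 and 15789 FPKM, a mean of 39.1% of the Day 0 mean, against 24.7% in males. DESeq2 called Gpx3 lower at both days in both sexes, with adjusted p of 0.00811 and 0.00943 in males and 0.0108 and 0.00200 in females.

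Gpx1, the cytosolic glutathione peroxidase that reduces hydrogen peroxide, fell at Day 3 in both sexes. In males it was at 1666, 1849, 3636 and 1388 FPKM at Day 0, at 1033, 988, 919 and 1180 at Day 2, and at 1003, 946, 923 and 902 at Day 3. No Day 2 or Day 3 male reached the lowest Day 0 male. The log2 fold change was -1.03 (SE 0.30, adjusted p = 0.0775) at Day 2 and -1.17 (SE 0.29, adjusted p = 0.0257) at Day 3, and without Day 0 mouse 3 it was -0.69 at Day 2, which then passed, and -0.80 at Day 3. In females it was at 1656, 2718, 3151 and 1047 FPKM at Day 0, at 1736, 562, 620 and 734 at Day 2, and at 667, 776, 629 and 830 at Day 3. The Day 3 females lay below all Day 0 females, whereas the first Day 2 female was above 2 of them. The fold change at Day 3 was -1.55 (SE 0.35, adjusted p = 0.0479), a mean at 33.9% of Day 0, and at Day 2 it was -1.20 (SE 0.48, adjusted p = 0.155). The Day 3 call in females remained in 1 of 8 fits that each left out 1 mouse, the one without Day 0 mouse 4, where it was -1.78, and in males in 4 of 8, each of them without 1 of the Day 0 mice. Without female Day 0 mice 2 and 3 the Day 3 change was -0.91 and did not pass (adjusted p = 0.175). With the gene length trend removed neither Day 3 call held, at -0.66 in males (adjusted p = 0.0636) and -1.09 in females (adjusted p = 0.0628). At Day 5 males were at 781, 364, 271 and 225 FPKM, all below Day 0, and females at 775, 498, 1778 and 1328, which overlapped Day 0.

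Gpx4, which reduces lipid hydroperoxides in membranes, did not pass in any comparison tested with all mice by edgeR, whereas DESeq2 called it lower at Day 3 in males (adjusted p = 0.0116) and at Days 2 and 3 in females (adjusted p = 0.0222 and 0.00349). Mouse 3 was far above the rest at Day 0 in each sex, with 495, 543, 2264 and 510 FPKM in males and 635, 1062, 2278 and 346 in females. Males were at 316, 413, 361 and 524 FPKM at Day 2, at 381, 342, 341 and 321 at Day 3, and at 349, 392, 284 and 345 at Day 5. The log2 fold change at Day 3 was -1.45 (SE 0.50, adjusted p = 0.0639), and without Day 0 mouse 3 it was -0.58 with an adjusted p of 0.00198, a smaller change in a group with less spread. Females were at 557, 258, 327 and 339 FPKM at Day 2, at 288, 273, 296 and 375 at Day 3, and at 398, 258, 547 and 436 at Day 5. Their fold change at Day 3 was -1.79 (SE 0.50, adjusted p = 0.0600), and without Day 0 mice 2 and 3 it was -0.69. A processed copy, Gpx4-ps2, carried 15.6% to 21.4% as many counts as Gpx4, and reads shared between the copies may have been divided between them.

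Msrb1, a methionine sulfoxide reductase that repairs oxidized methionine, did not pass in either sex with all mice by edgeR, whereas DESeq2 called it lower at Days 2 and 3 in males (adjusted p = 0.00488 and 0.00869) and in females (adjusted p = 0.0162 and 0.0486). Males were at 214, 206, 717 and 132 FPKM at Day 0, at 96.1, 94.8, 80.8 and 122 at Day 2, at 138, 108, 113 and 97.4 at Day 3, and at 59.5, 49.6, 69.7 and 49.2 at Day 5. The third Day 0 male was again the highest, and all Day 2 and Day 5 males lay below every Day 0 male. The fold change was -1.67 (SE 0.48, adjusted p = 0.0743) at Day 2 and -1.46 (SE 0.48, adjusted p = 0.0551) at Day 3. When Day 0 mouse 3 was left out it was -0.93 (adjusted p = 0.0220) and -0.70 (adjusted p = 0.0158), and both passed by edgeR. Females were at 145, 241, 373 and 73.1 FPKM at Day 0, at 99.3, 66.9, 82.4 and 64.3 at Day 2, at 103, 56.6, 80.3 and 122 at Day 3, and at 122, 58.1, 130 and 84.1 at Day 5. The fourth Day 0 female lay within the range of the later days. Female fold changes were -1.38 (SE 0.42, adjusted p = 0.0847) at Day 2 and -1.19 (SE 0.45, adjusted p = 0.119) at Day 3, and -0.49 and -0.28 without Day 0 mice 2 and 3.

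Txnrd2, the mitochondrial thioredoxin reductase, fell in males at Day 3. It was at 6.75, 7.51, 10.6 and 6.32 FPKM at Day 0, at 5.15, 5.28, 5.05 and 5.53 at Day 2, at 4.68, 4.75, 4.41 and 4.86 at Day 3, and at 4.67, 3.19, 2.56 and 3.54 at Day 5. The Day 0 males lay above all males of the later days. The fold change was -0.56 (SE 0.17, adjusted p = 0.0825) at Day 2 and -0.73 (SE 0.16, adjusted p = 0.0180) at Day 3, and the Day 3 call was lost without any 1 of the Day 3 males. Without Day 0 mouse 3 the change was -0.41 at Day 2, which then passed, and -0.56 at Day 3. Females were at 8.10, 10.5, 20.4 and 5.39 FPKM at Day 0 and at 4.06, 5.71, 4.11 and 4.92 at Day 3, with a fold change of -1.22 (SE 0.35, adjusted p = 0.0639), and of -0.53 without Day 0 mice 2 and 3.

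**Figure D1:**
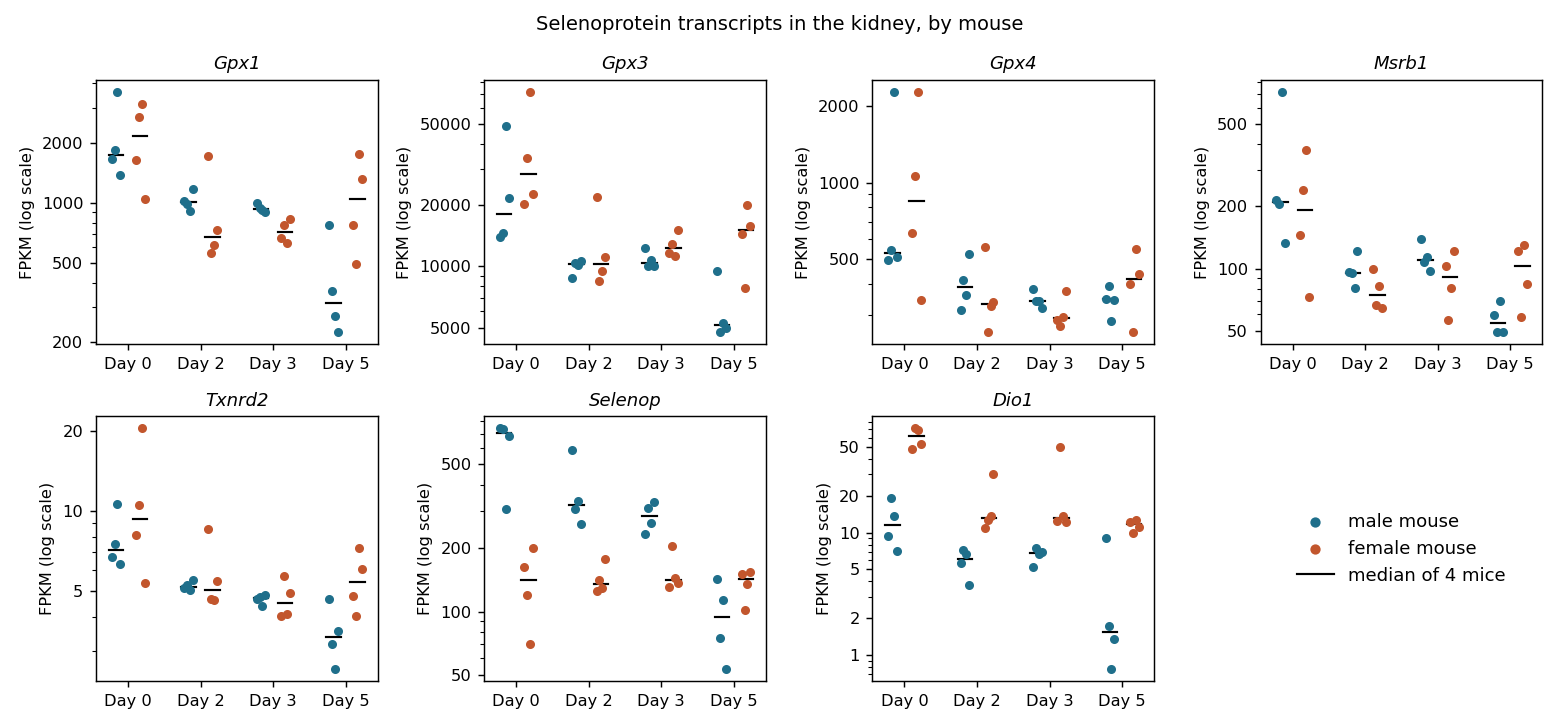
FPKM of the 7 genes on log axes by day, with 1 point per mouse (blue males, orange females, 4 a group) and a line at the median of each group. The Day 0 median is the highest of the 4 days in both sexes for Gpx1, Gpx3, Gpx4, Msrb1 and Txnrd2, while single Day 0 females lie among those of later days, and Selenop starts high in males and level in females, and Dio1 starts high in females.

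Selenop, the plasma carrier that delivers selenium to tissues, differed between the sexes. Males were at 741, 737, 307 and 682 FPKM at Day 0, at 589, 307, 335 and 262 at Day 2, at 234, 310, 263 and 333 at Day 3, and at 143, 75.0, 114 and 53.6 at Day 5. Only Day 0 mouse 3 lay within the range of Days 2 and 3, and the Day 5 males lay below all others. The male fold change was -0.72 (SE 0.35, adjusted p = 0.204) at Day 2 and -1.12 (SE 0.29, adjusted p = 0.0289) at Day 3, and the Day 3 call remained in 2 of 8 fits that left out 1 mouse, those without Day 0 mouse 3 (-1.35) or Day 0 mouse 4. The Day 2 change was -0.97 and passed without Day 0 mouse 3. At Day 5 the mean of the males was 15.6% of their Day 0 mean, given without a test.

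Females held Selenop at 162, 121, 70.5 and 200 FPKM at Day 0, at 125, 142, 130 and 177 at Day 2, at 132, 205, 144 and 138 at Day 3, and at 150, 102, 135 and 155 at Day 5. These 4 groups overlapped one another. The female fold change was 0.06 (SE 0.33, adjusted p = 0.925) at Day 2 and 0.15 (SE 0.33, adjusted p = 0.767) at Day 3, and it was -0.34 and -0.24 without Day 0 mice 2 and 3. Every male exceeded every female at Day 0, Day 2 and Day 3. The male over female log2 difference was 2.17 (SE 0.42, adjusted p = 0.0793) at Day 0, 1.37 (SE 0.27, adjusted p = 0.0355) at Day 2 and 0.86 (SE 0.16, adjusted p = 0.00670) at Day 3 by edgeR. At Day 3 it passed in 8 of 8 fits that left out 1 mouse, and at Day 2 in 2 of 8, those without male Day 2 mouse 4 or female Day 2 mouse 1 (adjusted p from 0.0149 to 0.127 over the 8). With 1 spread estimated over all 8 groups the Day 3 difference was 0.89 and did not pass (adjusted p = 0.257 by edgeR). At Day 5 the male range of 53.6 to 143 FPKM overlapped the female range of 102 to 155. The difference between the male and the female change from Day 0 to Day 3 was -1.30 (SE 0.46) and did not pass (adjusted p = 0.549). Ccdc152, antisense to Selenop, held at most 1.30% as many counts as Selenop, and whether counting used the strand was not given in the sources used here.

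Dio1, the type 1 deiodinase that converts thyroxine to the active thyroid hormone, was lower in males than in females at Day 0. Females were at 48.7, 71.3, 69.1 and 53.6 FPKM and males at 9.39, 19.3, 13.6 and 7.08. The groups did not overlap, and the male mean was 20.3% of the female mean (log2 difference -2.28, SE 0.32, adjusted p = 0.0273). The Day 0 values were among those that selected Dio1, so this p is not independent of the selection. The call remained in 2 of 8 fits that left out 1 mouse, those without male or female Day 0 mouse 4, with differences between -2.60 and -2.09 over the 8 fits, and without the 3 Day 0 libraries that stood apart it was -2.09 with an adjusted p of 0.184, a fit in which 0 of 16015 genes passed by edgeR and 928 had an unadjusted p under 0.05.

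Female Dio1 was at 10.8, 12.6, 13.7 and 29.97 FPKM at Day 2, at 12.6, 50.6, 13.7 and 12.3 at Day 3, and at 12.3, 9.90, 12.7 and 11.1 at Day 5. All Day 2 and Day 5 females lay below every Day 0 female, and at Day 3 mouse 2 lay within the Day 0 range. The fold change was -1.84 (SE 0.33, adjusted p = 0.0298) at Day 2 and -1.45 (SE 0.47, adjusted p = 0.0805) at Day 3, and without Day 3 mouse 2 the latter was -2.22 and passed. The Day 2 call remained in 3 of 8 fits that left out 1 mouse, those without Day 0 mouse 3, Day 0 mouse 4 or Day 2 mouse 4, with fold changes between -2.26 and -1.68 over the 8, and without Day 0 mice 2 and 3 it was -1.61 with an adjusted p of 0.0614. These comparisons share their Day 0 mice with the Day 5 comparison by which Dio1 was selected. At Day 5 the female mean was 19.0% of Day 0.

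Male Dio1 was at 5.63, 7.26, 6.66 and 3.77 FPKM at Day 2, at 5.27, 7.49, 6.74 and 6.92 at Day 3, and at 9.12, 1.72, 0.769 and 1.36 at Day 5. Days 2 and 3 overlapped Day 0 at its lowest mouse, and the library labelled Day 5 mouse 1 lay within the Day 0 range. The fold change was -1.08 (SE 0.32, adjusted p = 0.0787) at Day 2 and -0.90 (SE 0.29, adjusted p = 0.0513) at Day 3. At Day 5 it was -1.87 with all libraries, and -3.22 without male Day 5 mouse 1 and Day 0 mouse 3. Males remained below females at Day 2 (log2 difference -1.53, SE 0.33, adjusted p = 0.0529, not passed) and at Day 3 (-1.77, SE 0.51, adjusted p = 0.0448). With female mouse 2 of Day 3 left out it was -0.98 and still passed, and it was lost without female Day 3 mouse 1 or any 1 of the males. Crym, a thyroid hormone binding protein, fell at Day 3 in males (-0.67) and females (-0.65), calls that were kept in 5 and 1 of 8 fits that left out 1 mouse. The thyroid hormone transporter Slc16a10 fell in males at Day 3 (-0.46), kept in 2 of 8.

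The 24 selenoprotein genes were counted together at Days 2 and 3, and the 17 that were not selected here also alone. In males at Day 2, 21 could be tested and 1 passed, Selenok, a protein of the endoplasmic reticulum, which was at 41.5, 44.9, 75.8 and 44.1 FPKM at Day 0 and at 25.0, 25.5, 25.4 and 23.6 at Day 2 (log2 fold change -1.04, SE 0.20, adjusted p = 0.0387). Of all 16051 genes tested in that comparison, 1.81% were called higher and 1.35% lower. At Day 3, 8 of 20 tested genes passed, 7 of them lower, against 11.4% higher and 13.1% lower among 15908 genes. Of the 13 tested that were not selected, 5 passed, 4 of them lower. The lower genes were Gpx1, Selenop and Txnrd2 with Selenof (-0.46), Selenok (-0.94), Selenom (-1.59) and Selenow (-1.60). Selenoi, which makes phosphatidylethanolamine, rose by 0.39, and with the mitochondrial genome left out of the library size it did not pass, Dio1 did, and all 8 calls were lower. With a trend over gene length removed, Selenoi was at -0.12. All 7 genes selected here passed the filter on low counts in every comparison and had a negative fold change at both days, which is given as a description because the selection used the same Day 0 mice.

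The male counts moved with single libraries, and so did the calls over all genes. At Day 2 the count was 6 without Day 0 mouse 3, 7 without Day 0 mouse 4 and 0 without any 1 of the other 6 mice. The genes called higher and lower among all genes were then 6.33% and 7.67% without Day 0 mouse 3, 6.4% and 7.64% without Day 0 mouse 4, and at most 0.222% and 0.16% in the other 6 fits. At Day 3 it was 13 without Day 0 mouse 3, 16 without Day 0 mouse 4, 5 without Day 0 mouse 1 or 2, 1 without Day 3 mouse 1, 2 or 4 and 0 without Day 3 mouse 3, where 19.5% and 19.1% of all genes were called higher and lower without Day 0 mouse 3, 16.1% and 18.6% without Day 0 mouse 4, and 2.57% and 1.61% without Day 3 mouse 3. DESeq2 called 8 genes at Day 2, where it called 8% of all genes higher and 10.3% lower, and 14 at Day 3, where it called 16.3% and 18.8%.

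In females Dio1 and Txnrd1 passed at Day 2, and 4 selenoprotein genes passed at Day 3. At Day 2, 2 of 21 tested genes passed, Dio1 lower and Txnrd1 higher, where 0.774% of 16541 genes were called higher and 1.16% lower. At Day 3, 4 of 21 passed, Gpx1, Selenok (-0.72) and Selenow (-1.86) lower and Txnrd1 higher, where 1.26% of 17065 genes were called higher and 4.28% lower. Of the 14 tested that were not selected, 1 passed at Day 2 and 3 at Day 3. Txnrd1, the cytosolic thioredoxin reductase, was at 13.4, 11.9, 11.6 and 16.1 FPKM at Day 0, at 25.3, 34.8, 37.0 and 20.9 at Day 2, and at 36.4, 17.6, 29.6 and 28.9 at Day 3. Every female of Days 2 and 3 lay above every Day 0 female, with a fold change of 1.17 (SE 0.26, adjusted p = 0.0479) and 1.09 (SE 0.24, adjusted p = 0.0479). In males Txnrd1 was at 19.2, 21.3, 18.1 and 19.3 FPKM at Day 0 and at 23.1, 19.6, 21.3 and 19.7 at Day 3, which overlapped. Of the 7 genes selected here, 6 had a negative fold change in females at both days, and Selenop was the exception.

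Selenow, a small selenoprotein with a thioredoxin-like fold, was at 227, 463, 583 and 129 FPKM in Day 0 females and at 92.1, 81.1, 92.0 and 118 at Day 3. All Day 3 females lay below Day 0, the nearest being the fourth mouse of each group. The female counts also moved with single libraries. At Day 2 the count was 14 without Day 0 mouse 4, 1 without Day 0 mouse 3 or Day 2 mouse 4 and 0 without any 1 of the other 5, and at Day 3 it was 14 without Day 0 mouse 4, 2 without Day 3 mouse 2 and 0 without any 1 of the other 6. Without Day 0 mouse 4, 13.4% and 15% of all genes were called higher and lower at Day 2 and 18.7% and 20.4% at Day 3, while at Day 3 at most 1 gene of any kind was called in each of the 6 fits with a count of 0. Without Day 0 mice 2 and 3 together the count was 0 at both days, with 5 and 9 selenoprotein genes at an unadjusted p under 0.05 by edgeR. In that fit 0.361% and 0.591% of 17433 genes were called higher and lower at Day 2 and 0 of 18098 at Day 3. By contrast, DESeq2 with all mice called 9 and 11 selenoprotein genes, and of all genes 4.2% higher and 8.78% lower at Day 2 and 7.39% and 13.9% at Day 3. With DESeq2's size factors in edgeR, Txnrd1 alone passed at Day 3.

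**Figure D2:**
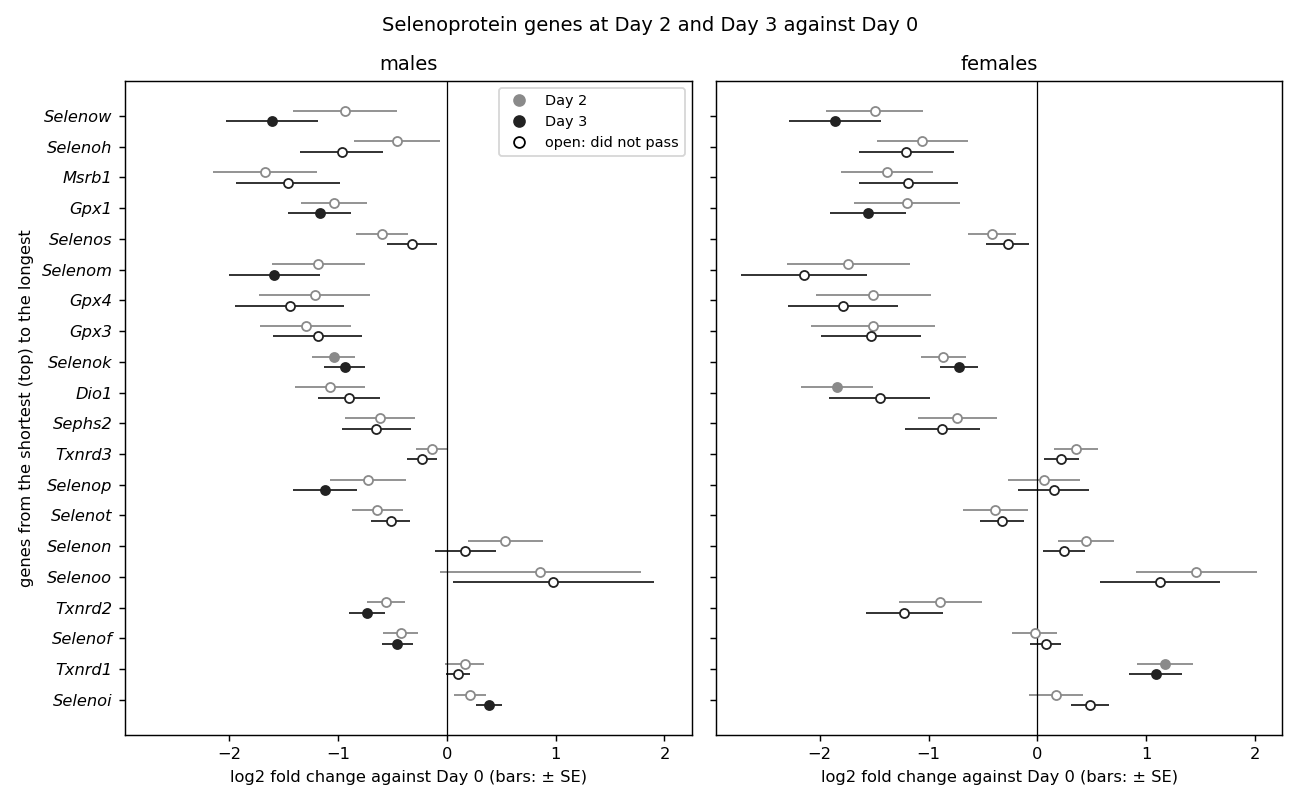
Log2 fold changes against Day 0 with their SE (bars) for the 20 selenoprotein genes tested in all 4 comparisons, males left and females right, Day 2 in grey and Day 3 in black, filled where the adjusted p was under 0.05, in order of gene length from the shortest at the top. Most short genes lie left of 0 in both sexes, Txnrd1 lies right of 0 in females, and Selenop lies left of 0 in males and near 0 in females.

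Fold changes at Days 2 and 3 differed with the length of the gene, in selenoproteins and in all genes. In males at Day 3 the median was -1.31 over 6 selenoprotein genes of up to 1500 bases, -0.94 over 7 genes between 1500 and 3000 bases and 0.10 over 7 longer genes. Over all genes tested the medians of these classes were -0.57, -0.27 and 0.18. In females at Day 3 the selenoprotein medians were -1.38, -0.88 and 0.16, and those of all genes were -0.60, -0.22 and 0.18. The difference between short and long genes also varied within Day 0, where it stood at 0.51 in male mouse 3, 0.45 in female mouse 2 and -0.82 in female mouse 4 (log2, relative to the group's mean). With a trend over gene length taken out of each library, the count fell to 0 in males at Day 2, 3 in males at Day 3 (Txnrd2 -0.81, Selenof -0.66 and Selenok -0.58), 1 in females at Day 2 (Dio1, -1.59) and 0 in females at Day 3. The 2 comparisons at 0 had 8 and 10 selenoprotein genes at an unadjusted p under 0.05 by edgeR. Calls over all genes fell as well, to 0.355% higher and 0.324% lower in males at Day 2, 5.03% and 6.95% in males at Day 3, and 0 of 17065 genes in females at Day 3, where 5027 had an unadjusted p under 0.05. In females at Day 2 they were 0.78% and 0.883%. Gene lengths were 1441 bases for Gpx1, 1813 for Gpx3, 1724 for Gpx4, 1258 for Msrb1, 4401 for Txnrd2, 2842 for Selenop and 1970 for Dio1.

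**Figure D3:**
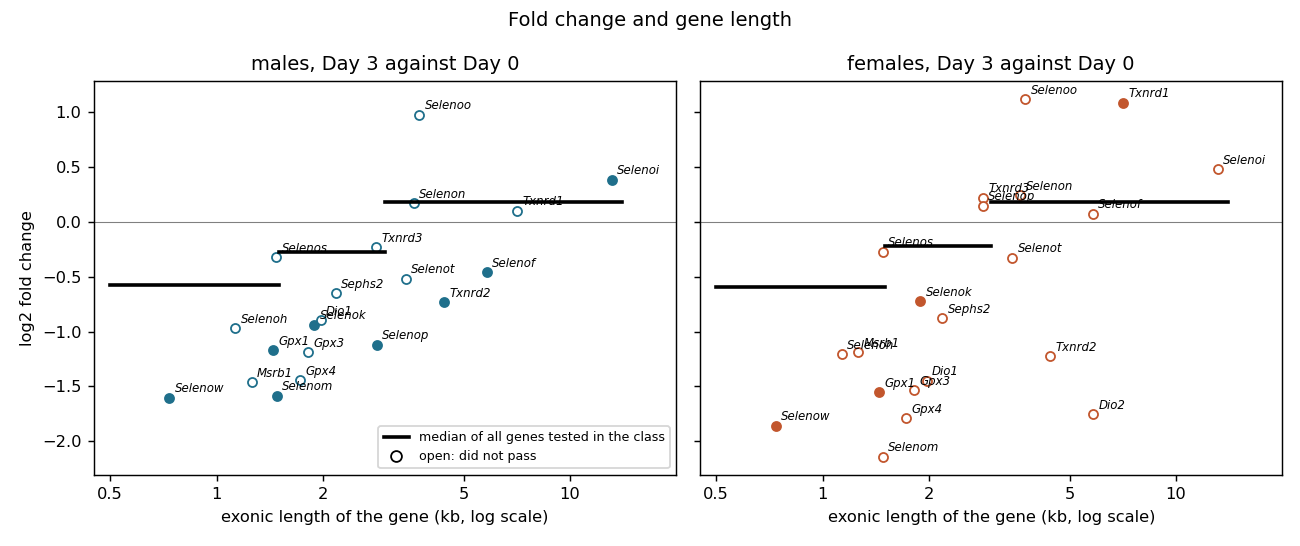
Log2 fold change at Day 3 against Day 0 over gene length in kilobases (log axis) for each selenoprotein gene tested, males left and females right, with lines at the median of all genes tested in the 3 length classes. The selenoprotein genes of up to 1500 bases had a median of -1.31 in males and -1.38 in females, and those over 3000 bases 0.10 and 0.16.

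At Day 5 the other 17 selenoprotein genes were counted alone, because the selection used the Day 5 change of the 7. Gpx2 and Selenov were at 3 counts or fewer in 26 and 31 of the 32 libraries. In males 13 of the 17 could be tested, with a median fold change of -0.57, and 2 fell, Sephs2 and Selenot, where 8.98% of 14969 genes were called higher and 10.2% lower. Sephs2, the selenophosphate synthetase that prepares selenium for selenocysteine and is itself a selenoprotein, was at 120, 117, 256 and 78.3 FPKM at Day 0 and at 78.8, 24.1, 22.03 and 19.7 at Day 5. The high Day 5 value was the library labelled mouse 1, and the fold change was -1.99 (SE 0.54, adjusted p = 0.0332). Selenot, a protein of the endoplasmic reticulum, was at 75.4, 84.5, 116 and 65.8 FPKM at Day 0 and at 58.1, 32.9, 29.3 and 29.1 at Day 5, with no overlap (-1.21, SE 0.31, adjusted p = 0.0272). The count was 5 without Day 0 mouse 4, 4 without Day 5 mouse 1, 1 without Day 0 mouse 3 and 0 without any 1 of the other 5, where at most 3.52% of all genes were called higher and 3.8% lower. Without Day 0 mouse 4, 10.5% of all genes were called higher and 11.2% lower. These shares were 11.4% and 14.5% without Day 5 mouse 1 and 9.68% and 10.2% without Day 0 mouse 3.

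Without Day 0 mouse 3 and Day 5 mouse 1, 9 of the 17 passed in males, 5 lower and 4 higher, where 17.5% of 14886 genes were called higher and 19.7% lower. The lower genes included Sephs2 (-2.28), Selenoo (-1.38), Selenot (-1.32) and Txnrd1 (-1.01), and the higher genes were Selenon (1.40), Selenow (0.97), Selenom (0.79) and Selenok (0.41). Selenow was at 117, 201, 181 and 256 FPKM in the 4 Day 5 males against 70.9, 85.7, 312 and 165 at Day 0. With all mice these 4 genes did not pass, and Day 0 mouse 3 was the highest of its group for Selenow, Selenom and Selenok. In males, 8 leukocyte markers had a median sum of 30.8 FPKM at Day 0 and 147 at Day 5 (27.9 to 209). Lyz2 and S100a8 had the highest Day 5 medians, 79.0 and 28.0 against 25.9 and 0.604 at Day 0. Adgre1 went from 1.08 to 1.25 and Cd3e from 0.160 to 0.0635. The median sum of 5 adipocyte markers went from 377 to 2014, and Cfd, the largest of them, from 336 to 1856. With all mice edgeR called 1 of the 8 and 0 of the 5, with 3 and 2 at an unadjusted p under 0.05. Of all genes 8.98% were called higher and 10.2% lower there. The part of these cells was not tested.

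In females at Day 5, 0 of the 17 passed by edgeR, with 5 at an unadjusted p under 0.05, and DESeq2 called 0, with 6, where it called 1.73% of all genes higher and 2.77% lower. Of all 16260 genes, 0.185% were called higher and 0.0738% lower. Sephs2 was at 94.3, 140, 241 and 68.4 FPKM at Day 0 and at 80.3, 68.9, 115 and 106 at Day 5 in females, and the groups overlapped. Without Day 0 mouse 4 the count was 5, where 4.85% of all genes were called higher and 7.79% lower. Without any 1 of the other 7 the count was 0, where at most 0.208% were called higher and 0.0893% lower. The female fold changes of the selected genes were -0.95 for Gpx1, -1.33 for Gpx3, -1.37 for Gpx4, -1.05 for Msrb1, -0.97 for Txnrd2, -0.03 for Selenop and -2.39 for Dio1. The male values were -2.40, -2.03, -1.49, -2.50, -1.17, -2.70 and -1.87 in the same order. Both sets of values are descriptions, and the difference between the sexes at Day 5 was not tested. Of 14 proximal tubule markers, 5 were called lower in males at Day 5 and 0 in females by edgeR, with 4 at an unadjusted p under 0.05 in females, and the part of these cells in the values was not tested.

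**Figure D4:**
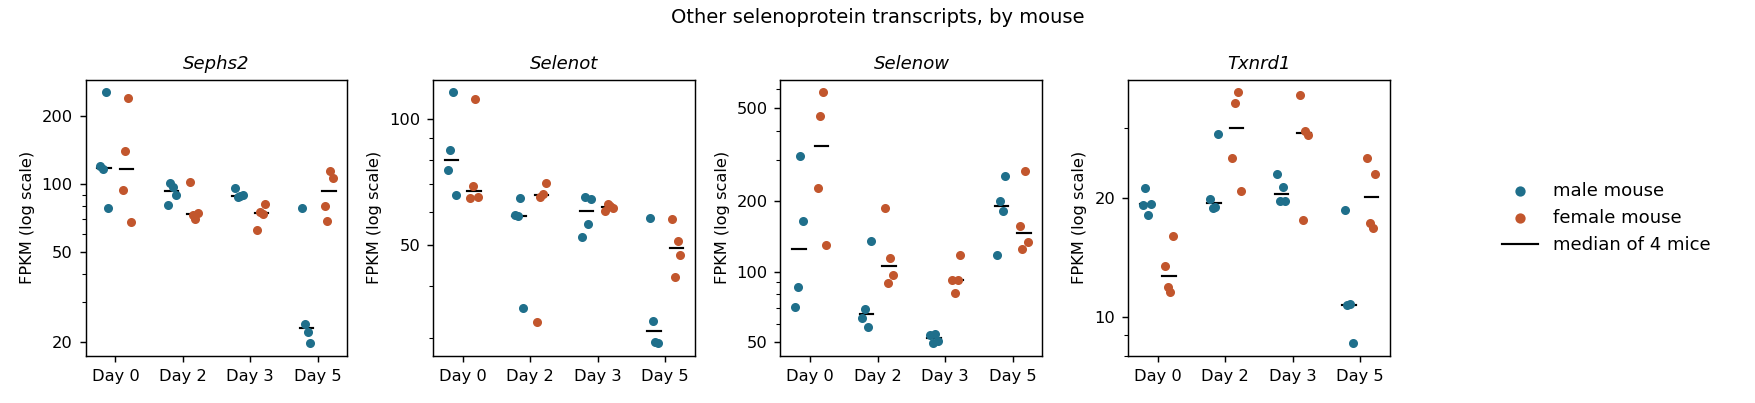
FPKM of Sephs2, Selenot, Selenow and Txnrd1 on log axes by day, with 1 point per mouse (blue males, orange females, 4 a group) and a line at the median of each group. Among males, Sephs2 and Selenot are lowest in 3 of the 4 Day 5 mice, and Txnrd1 is higher in females at Days 2 and 3 than at Day 0.

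Genes of selenium and selenocysteine handling were called in 3 comparisons with Day 0. Of 8 such genes, Scly, the lyase that frees selenium from selenocysteine, fell in males at Day 3 (-0.59) and at Day 5 (-1.50, SE 0.27, adjusted p = 0.0110), from 22.7, 20.7, 28.1 and 20.4 FPKM at Day 0 to 12.8, 6.06, 6.07 and 7.96 at Day 5. Eefsec, the elongation factor that brings the selenocysteine transfer RNA to the ribosome, fell in males at Day 5 (-1.12, SE 0.22, adjusted p = 0.0137). Both Day 5 calls passed in 8 of 8 fits that left out 1 mouse. Pstk, the kinase that phosphorylates the serine on the selenocysteine transfer RNA, fell in females at Day 3 (-1.48, adjusted p = 0.0489), a call that was kept only in the fit without Day 0 mouse 4 among the 8. By edgeR 0 of the 8 passed at Day 2, with 3 in males and 2 in females at an unadjusted p under 0.05, and 0 in females at Day 5, with 1. Over all genes 13.1% were called lower in males at Day 3, 10.2% in males at Day 5 and 4.28% in females at Day 3, beside 1, 2 and 1 of these 8. Of all genes 1.81% were called higher and 1.35% lower in males and 0.774% and 1.16% in females at Day 2, and 0.185% and 0.0738% in females at Day 5.

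Of the receptors of Selenop, Lrp2 (megalin) was at 61.2, 57.1, 53.8 and 53.4 FPKM at Day 0 and at 46.8, 9.08, 4.49 and 2.85 at Day 5 in males. The Day 5 males lay below Day 0, mouse 1 the nearest, and the fold change of -1.85 (SE 0.78) did not pass (adjusted p = 0.123). Without Day 5 mouse 1 and Day 0 mouse 3 it was -3.41 and passed by edgeR (adjusted p = 0.000485). At Days 2 and 3 the male fold changes of Lrp2 were 0.23 and 0.44, and neither passed. Lrp8 was near 0 throughout, at most 0.585 FPKM, and rose in males at Day 5 (1.80, SE 0.48, adjusted p = 0.0299), from between 0.0644 and 0.123 FPKM to between 0.144 and 0.513. Of 4 glutathione peroxidases with cysteine in place of selenocysteine, Gpx8 rose in males at Day 5 (1.54, adjusted p = 0.0149), from 9.30, 10.3, 8.14 and 17.9 FPKM to 18.8, 42.8, 31.5 and 42.1. Gpx5 was at 3 counts or fewer in 30 of 32 libraries. These were 1 of 2 receptors and 1 of 3 tested peroxidases, beside 8.98% of all genes called higher in that comparison.

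Among the glutathione and thioredoxin genes that work with these enzymes, more fell than rose in males at Days 3 and 5. Of 21, 3 were lower at Day 2 (Msra -0.90, Msrb2 -0.80 and Txn2 -0.77), 10 were lower at Day 3 and 14 were lower and 2 higher at Day 5. Of all genes 1.35%, 13.1% and 10.2% were called lower in these comparisons, and 8.98% higher at Day 5. At Day 3 the strongest changes were in Sod1 (-1.24), the cytosolic superoxide dismutase, and in the peroxiredoxins Prdx2 (-1.10), Prdx5 (-1.04) and Prdx1 (-1.03), which reduce peroxides with thioredoxin. At Day 5 they were in Msra (-2.26), a methionine sulfoxide reductase, Ggt1 (-2.18), which breaks down extracellular glutathione, Gss (-1.82), the glutathione synthetase, and Sod3 (-1.69). Msrb3 (1.32) and Txnip (1.09), an inhibitor of thioredoxin, were the 2 that rose. In females Gclc, the catalytic subunit of the enzyme that starts glutathione synthesis, rose at Day 2 (1.75, adjusted p = 0.0221) and Day 3 (1.73, adjusted p = 0.0465), from 34.5, 22.2, 31.6 and 31.3 FPKM at Day 0 to 65.7, 124, 128 and 81.0 at Day 2 and 115, 68.1, 118 and 93.4 at Day 3. Prdx5 (-1.50), Prdx2 (-1.35), Prdx4 (-1.30) and Msra (-1.09) fell in females at Day 3, where 4.28% of all genes were called lower, and at Day 5 0 of the 21 passed by edgeR, with 9 at an unadjusted p under 0.05. The median fold change over the 21 was -0.61 in males at Day 3, -1.04 in males at Day 5 and -0.59 in females at Day 3.

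Genes that act on lipid peroxidation, the process that Gpx4 opposes, were 9, of which 8 could be tested. In males 1 was called lower at Day 2, 1 at Day 3 and 2 at Day 5, beside 1.35%, 13.1% and 10.2% of all genes, and in females 1 at Day 3 and 1 at Day 5, beside 4.28% and 0.0738%. Tfrc, the transferrin receptor, was lower in males at Day 2 (-1.24), Day 3 (-0.94) and Day 5 (-1.04) and in females at Day 5 (-1.32, adjusted p = 0.0477). Ptgs2, a prostaglandin synthase, rose in males at Day 5 (3.62, adjusted p = 0.0306) from at most 0.159 FPKM to at most 0.992, and Lpcat3 fell (-0.99). Slc3a2, a subunit of the cystine transporter, fell in females at Day 3 (-0.72, adjusted p = 0.0479).

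Leaving out 1 mouse at a time changed many calls in these lists. In females at Day 3 each call named remained without Day 0 mouse 4, those of Gclc, Msra and Txnrd1 remained without Day 3 mouse 2, and all were lost without any 1 of the other 6 mice. With the gene length trend removed, the calls of Gclc, Prdx5, Prdx2, Prdx4, Msra, Pstk, Slc3a2 and Crym in females at Day 3 were lost too (adjusted p from 0.0596 to 0.0623), as 0 genes of any kind passed by edgeR and 5027 had an unadjusted p under 0.05. They were also lost without Day 0 mice 2 and 3 (adjusted p from 0.159 to 0.196). Gclc at Day 2 remained in 4 of 8 fits, and Tfrc in females at Day 5 in 1 of 8, the one without Day 0 mouse 4. In males at Day 2, Msra, Msrb2, Txn2 and Tfrc passed in 2 of 8, those without Day 0 mouse 3 or 4. In males at Day 3, Tfrc passed in 8 of 8 fits, Sod1 and Prdx2 in the 4 without a Day 0 mouse, and Prdx1 and Prdx5 in 2, those without Day 0 mouse 3 or 4. In males at Day 5, Msra passed in 8 of 8, Ggt1 and Gss in 7, lost without Day 5 mouse 2, Gpx8 in 5, Lrp8 in 4, Sod3 and Ptgs2 in 3, Msrb3 and Txnip in 2, and Tfrc in 1, without Day 5 mouse 4.

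Between the sexes, 1 of the 24 selenoprotein genes passed at Day 0 (Dio1), 1 at Day 2 (Selenop) and 7 at Day 3. Among all genes, males were called higher in 0.237% and lower in 0.212% of 16042 genes at Day 0, in 0.891% and 0.578% of 16608 at Day 2, and in 10.6% and 10.7% of 16673 at Day 3. At Day 3 males were higher for Gpx1 (0.36), Selenop, Selenoo (0.46, adjusted p = 0.00770) and Sephs2 (0.29) and lower for Dio1, Selenom (-0.41) and Selenow (-0.90, adjusted p = 0.000837). Selenow was at 53.4, 49.4, 54.0 and 50.3 FPKM in Day 3 males, all below the Day 3 females. Selenoo, a mitochondrial enzyme, was at 7.42, 7.58, 7.69 and 7.43 FPKM in Day 3 males and at 5.23, 6.48, 5.02 and 4.89 in Day 3 females, without overlap. Selenow and Selenoo passed in 8 of 8 fits that left out 1 mouse. Markers of cell types differed between the same groups, with 8 of 14 proximal tubule and 5 of 5 endothelial markers called higher in Day 3 males and 4 of 5 tested collecting duct and 3 of 6 tubule injury markers called lower, and their part was not tested. When 1 spread was estimated over all 8 groups, 0 of the 24 passed at Day 3, with 3 at an unadjusted p under 0.05 by edgeR, and 0.538% of 18220 genes were called higher and 0.45% lower. DESeq2 called 8 of the 24, and 13% and 12.8% of all genes.

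Single libraries moved these counts too. At Day 0 the count was 1 without male or female mouse 4 and 0 without any 1 of the other 6, and at Day 2 it was 2 without female mouse 1, 1 without male mouse 4 and 0 without any 1 of the other 6. At Day 3 it was 3 without male mouse 2 or 3, 4 without male mouse 1 or 4 or female mouse 1 or 3, 6 without female mouse 4 and 11 without female mouse 2. Of all genes 17.1% were called higher and 17.5% lower without female mouse 2, and 5.97% to 8.88% higher and 5.15% to 8.48% lower in the other 7 fits. At Day 0 at most 0.291% of all genes were called higher and 0.281% lower in any of the 8 fits, and at Day 2 at most 1.94% and 1.41%. In the other lists the Day 3 males were higher for Ggt1 (0.94), Prdx5 (0.43), Gss (0.37), Secisbp2l (0.35) and Sepsecs (0.34) and lower for Lrp8 (-1.74), Aifm2 (-0.80), Gclc (-0.65), Gpx8 (-0.31) and Slc3a2 (-0.26).

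Whether the change from Day 0 differed between the sexes was tested as an interaction. By edgeR 0 of the 24 selenoprotein genes passed at Day 2 and 0 at Day 3, with 2 and 4 at an unadjusted p under 0.05, and DESeq2 also called 0 at each day. Of all genes 0% of 17467 were called at Day 2 and 0.0114% of 17598 at Day 3, where 1252 genes had an unadjusted p under 0.05.

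Over the 32 libraries the 3 protein-coding genes whose log2 CPM followed Gpx3 most closely, among 13188 genes, were Rnf186 (Pearson r = 0.953), Cd63 (0.939) and Ccs (0.924). Those nearest to Dio1 were Wfdc16 (0.926), D630023F18Rik (0.921) and Prom1 (0.915). Among the 7 genes themselves, Gpx3 and Txnrd2 (0.921), Gpx1 and Txnrd2 (0.916) and Gpx1 and Gpx3 (0.897) were the closest pairs, and the values of Selenop ran from 0.01 with Gpx4 to 0.42 with Gpx1. The points share the differences between groups and between libraries, including the Day 0 libraries that stood apart, so these values are descriptions.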

How the data were processed

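The authors deposited raw counts and FPKM values per gene for 32 mouse kidney libraries. Per the labels they used HTSeq and DESeq2. The labels' processing notes name GRCm39 (mm39) and the study's methods name GRCm38, and of the 54409 genes of the file found in GENCODE vM21 (GRCm38), 98.33% carried its coordinates. Here counts were tested with edgeR 4.0.16 (R 4.3.3), TMM scaling, filterByExpr and the quasi-likelihood test with robust estimation. Each comparison was fitted on the groups compared, adjusted by Benjamini-Hochberg over all genes tested, and a gene passed at an adjusted p under 0.05. The SE was derived from the fold change and its F statistic. FPKM values are levels only. No 2 libraries were duplicates. Named genes were all 7 selected genes and, per other list and comparison, up to 4 that passed with the strongest change, and others in counts of 5 or fewer or under an alternative were named after their values were seen. The members and lists were chosen with earlier results of these data known. DESeq2 1.42.0, other filters and scalings, a replicate block and each mouse left out were the alternatives. Leaving out 4 libraries that stood apart, and removing a gene length trend, were added after seeing the data. The scripts were tested on simulated data. Some results are not reported here.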

Additional observations from a re-analysis of the deposited data

Results flagged for a closer look

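Among 56 groups of 4 mice, 9 held 1 mouse that lay further from the others than 95% of such groups would by chance. By chance about 1 in 20 independent groups would be picked. These 56 are 7 genes measured in the same 32 libraries, so they are not independent, and the 9 cannot be set against that rate. Male Day 0 mouse 3 was the one picked for Gpx4 at 2264 FPKM (the others were at 495 to 543), for Msrb1 at 717 (132 to 214) and for Selenop at 307 (682 to 741), so it was high for the first 2 genes and low for the third. The library labelled male Day 5 mouse 1 was picked for Gpx3 at 9436 FPKM (4746 to 5272) and for Dio1 at 9.12 (0.769 to 1.72). Female Day 3 mouse 2 was picked for Dio1 at 50.6 FPKM (12.3 to 13.7) and Selenop at 205 (132 to 144). Female Day 2 mouse 1 was picked for Gpx1 at 1736 FPKM (562 to 734) and female Day 2 mouse 4 for Dio1 at 29.97 (10.8 to 13.7).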

How the results depend on the processing

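The counts of selenoprotein genes that passed kept within 1.5 times of their value in every comparison with a filter of 10 counts in every library and without the mitochondrial genome. Of the Day 2 and Day 3 comparisons with Day 0, in the order males Day 2, males Day 3, females Day 2 and females Day 3, edgeR called 1, 8, 2 and 4. DESeq2 called 8, 14, 9 and 11, and 1 fit over all 8 groups called 4, 9, 11 and 11. That fit called 5.23% of all genes higher and 7.66% lower in males at Day 2, and 8.3% and 11.2% at Day 3. In females it called 9.08% and 12.7% at Day 2 and 9.6% and 13.8% at Day 3. DESeq2's size factors in edgeR gave 1 in females at Day 3, where 0.791% of all genes were called higher and 1.74% lower. Without the 4 libraries that stood apart the counts were 6, 13, 0 and 0, and with the gene length trend removed 0, 3, 1 and 0. Of the 17 others at Day 5, where edgeR called 2 in males and 0 in females, DESeq2 called 6 and 0, 1 fit over all groups 7 and 1, and the fit without the libraries that stood apart 9 and 0. Of all genes, DESeq2 called 13.7% higher and 14.7% lower in males and 1.73% and 2.77% in females. The fit over all groups called 13.3% and 17.8% in males and 3.96% and 6.98% in females. Without the libraries that stood apart the shares were 17.5% and 19.7% in males and 0.247% and 0.069% in females. Between the sexes, DESeq2 called 2 at Day 0 and 3 at Day 2, no filter on low counts gave 2 and 2, 1 fit over all groups gave 2 at Day 0 and 0 at Day 3, and 0 passed at Day 0 without the libraries that stood apart, with 2 at an unadjusted p under 0.05 by edgeR. Of all genes between the sexes, DESeq2 called 1.66% higher and 1.05% lower at Day 0 and 3.17% and 1.95% at Day 2. No filter gave 0.16% and 0.15% at Day 0 and 0.746% and 0.501% at Day 2. The fit over all groups gave 1.61% and 1.61% at Day 0 and 0.538% and 0.45% at Day 3. Without the libraries that stood apart, 0 of 16015 genes passed at Day 0. The interactions stayed at 0 of 24 in all these settings. The calls over all genes moved with these settings too. The cause of these shifts was not tested.

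Same-numbered mice were different animals. The correlations of their deviations from the group means lay between -0.416 and 0.482, and in no comparison were all over 0.1. Between the sexes at Day 0 they were 0.271, -0.075, 0.445 and 0.482, with 3 of the 4 mice closest to the mouse of their own number. The numbers were not used as pairs in the main fits. With the replicate block the counts were 0 (males Day 2), 0 (males Day 3), 1 (females Day 2), 0 (females Day 3), 2 (males against females at Day 0), 0 at Day 2 and 4 at Day 3. Of all genes the block left 0.0187% called higher and 0.0125% lower in males at Day 2, 0.346% and 0.22% at Day 3, 0.169% and 0.145% in females at Day 2 and 0 of 17065 at Day 3, where 4236 had an unadjusted p under 0.05 by edgeR. The counts of 0 came with 10, 12, 10 and 3 genes at an unadjusted p under 0.05 by edgeR. Between the sexes at Day 0 the block called 0.817% of all genes higher and 0.492% lower, against 0.237% and 0.212% without it. Genes at an unadjusted p under 0.05 by edgeR went from 1289 to 2471 there. At Day 2 the block called 0.524% and 0.325%, and at Day 3 it called 9.02% and 8.59%. Selenop in females at Day 5 was at 0.051 under the block.

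With 1 mouse left out the counts ran from 0 to 7 in males at Day 2, 0 to 16 at Day 3 and 0 to 5 at Day 5, from 0 to 14 in females at Day 2, 0 to 14 at Day 3 and 0 to 5 at Day 5, and between the sexes from 0 to 1 at Day 0, 0 to 2 at Day 2 and 3 to 11 at Day 3. Both interactions stayed at 0.

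Some fold changes near 0 changed sign. Without the libraries that stood apart, Selenop in females was at -0.34 at Day 2 and -0.24 at Day 3, the Day 0 sex difference was 0.070 for Gpx4 and 0.023 for Txnrd2, and the interaction was -0.11 for Gpx1, -0.016 for Gpx3 and -0.19 for Txnrd2 at Day 2 and -0.018 for Txnrd2 at Day 3. With the length trend removed, Selenoi was at -0.12 and Txn1 at 0.022 in males at Day 3. The sex difference of Gpx1 at Day 0 was -0.034 without a filter and -0.0040 without the mitochondrial genome, and that of Txnrd2 at Day 3 was 0.0055 in the fit over all groups. The Day 5 to Day 0 log2 ratio of Selenop in females was 0.16 in CPM over nuclear genes. Of 42 values compared on that scale, 37 stayed the same and 4 others moved without changing sign. In females the mean of Txnrd2 was 53.4 at Day 0 and 34.3 at Day 5 on that scale, against 11.1 and 5.53 FPKM. That of Msrb1 was 283 and 175, against 208 and 98.5 FPKM.

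With 1 mouse left out, Selenop in females ranged from -0.15 to 0.29 at Day 2, -0.069 to 0.38 at Day 3 and -0.25 to 0.20 at Day 5. The sex difference at Day 0 ranged from -0.36 to 0.23 for Gpx1, -1.03 to 0.46 for Gpx4 and -0.14 to 1.04 for Msrb1. At Day 2 it ranged from -0.022 to 0.68 for Gpx1, -0.53 to 0.027 for Gpx3, -0.044 to 0.38 for Gpx4 and -0.27 to 0.080 for Txnrd2, and at Day 3 from -0.086 to 0.087 for Txnrd2. The Day 2 interaction ranged from -0.068 to 0.68 for Gpx1, -0.30 to 0.71 for Gpx3, -0.34 to 1.11 for Gpx4, -0.71 to 0.43 for Msrb1 and -0.13 to 0.57 for Txnrd2. The Day 3 interaction ranged from -0.16 to 0.85 for Gpx3, -0.28 to 1.16 for Gpx4 and -0.69 to 0.44 for Msrb1. With 4 mice a group and Day 0 libraries that differed this much, a change that did not pass cannot be taken as absent.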
